A study of Mus musculus and Homo sapiens with 107 samples.

Results

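YAP1 and its paralog WWTR1 (TAZ), the TEAD factors TEAD1 and TEAD4, and 6 genes known as their targets or partners (CCN1, CCN2, ANKRD1, AMOTL2, AJUBA and LATS2) were followed in lung cancer cells given BRM014. The 10 genes were taken by identifier from tables of 24019 genes for H1299 and 24353 genes for A549, of which 22842 identifiers are in both. All 10 were present in both tables and passed the filter on low counts in each line. In the order above the identifiers are ENSG00000137693, ENSG00000018408, ENSG00000187079, ENSG00000197905, ENSG00000142871, ENSG00000118523, ENSG00000148677, ENSG00000114019, ENSG00000129474 and ENSG00000150457.

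H1299 and A549 are established human non-small-cell lung cancer lines, labelled wild type, and both are known to lack functional BRG1. BRM014 inhibits the ATPase activity of BRM and BRG1, either of which drives a given SWI/SNF chromatin remodelling complex. The 4 groups are H1299 with BRM014, H1299 with DMSO, A549 with BRM014 and A549 with DMSO, each of 3 libraries. Cells received 5 µM BRM014 or the solvent DMSO for 12 h, and total RNA was sequenced after removal of ribosomal RNA. The lines were grown in different media and their libraries had different numbers of PCR cycles (8 for H1299 and 9 for A549), so line, medium and amplification cannot be told apart.

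YAP1 and TAZ are coactivators that do not bind DNA themselves and act on genes through TEAD factors. The Hippo kinases, ending in LATS1 and LATS2, phosphorylate both coactivators and hold them outside the nucleus. Several targets feed back on the pathway, and YAP activity in lung cancer is known for supporting growth and tolerance of targeted drugs. This activity is set largely by the location and phosphorylation of the proteins, which RNA levels do not show.

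The libraries held 30602193 to 41780029 counts for H1299 with BRM014, 28412113 to 40072734 for H1299 with DMSO, 42417643 to 44910378 for A549 with BRM014 and 40684360 to 50177678 for A549 with DMSO. The A549 BRM014 columns include a pair with the same header, called libraries a and b here in column order, and the third is numbered 3. Across genes, which are not independent replicates, library a and A549 DMSO replicate 1 deviated from their group means together (Pearson r = 0.374 over 15188 genes), and 9 of the 10 genes deviated in the same direction in both, 7 of them upward. The share of all genes that did so was not counted, so this does not set the 10 genes apart. Without both libraries the same number of the 10 genes, 8, changed in A549.

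With BRM014, 8 of the 10 genes changed in H1299 and 8 changed in A549. YAP1, TEAD4, CCN2 and LATS2 rose in both lines and AMOTL2 fell in both. AJUBA was the gene with opposite directions, higher in H1299 and lower in A549. Its H1299 rise was at the threshold and did not pass in 8 of 15 alternative analyses. WWTR1 and ANKRD1 fell in H1299 and did not pass the test in A549, while TEAD1 and CCN1 rose in A549 and did not pass it in H1299. "Changed", "rose" and "fell" are used for an adjusted p below 0.05 in edgeR's quasi-likelihood test, with Benjamini-Hochberg adjustment over all genes tested in that line. ANKRD1 in H1299 was the gene whose estimated change exceeded 2-fold. Its 95% interval, 0.384 to 0.601 times the DMSO level, also holds falls of less than 2-fold.

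In H1299, 22% of the 14986 genes tested changed, 9.29% upward and 12.7% downward, against 5 upward and 3 downward among the 10. In A549, 37% of the 15188 genes tested changed, 17.7% upward and 19.4% downward, against 6 upward and 2 downward among the 10. The genes described here lie mostly at high counts, where more genes were called: among genes that averaged 20 CPM or more (CPM being TMM-scaled counts), which 9 of the 10 did in each line, the shares were 27.5% in H1299 and 38.7% in A549. The median absolute log2 fold change was 0.32 over the 10 genes and 0.10 over all genes in H1299, and 0.31 and 0.16 in A549. BRM014 and DMSO libraries did not overlap for 9 of the 10 genes in H1299 (all but CCN1) and for 8 of them in A549 (all but WWTR1 and ANKRD1), where this held for 35.2% of all genes tested in H1299 and 48.2% in A549. The 10 genes were chosen with earlier results of these data known. Comparisons with all genes, here and below, therefore describe them and do not test them as a set.

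**Figure D1:**
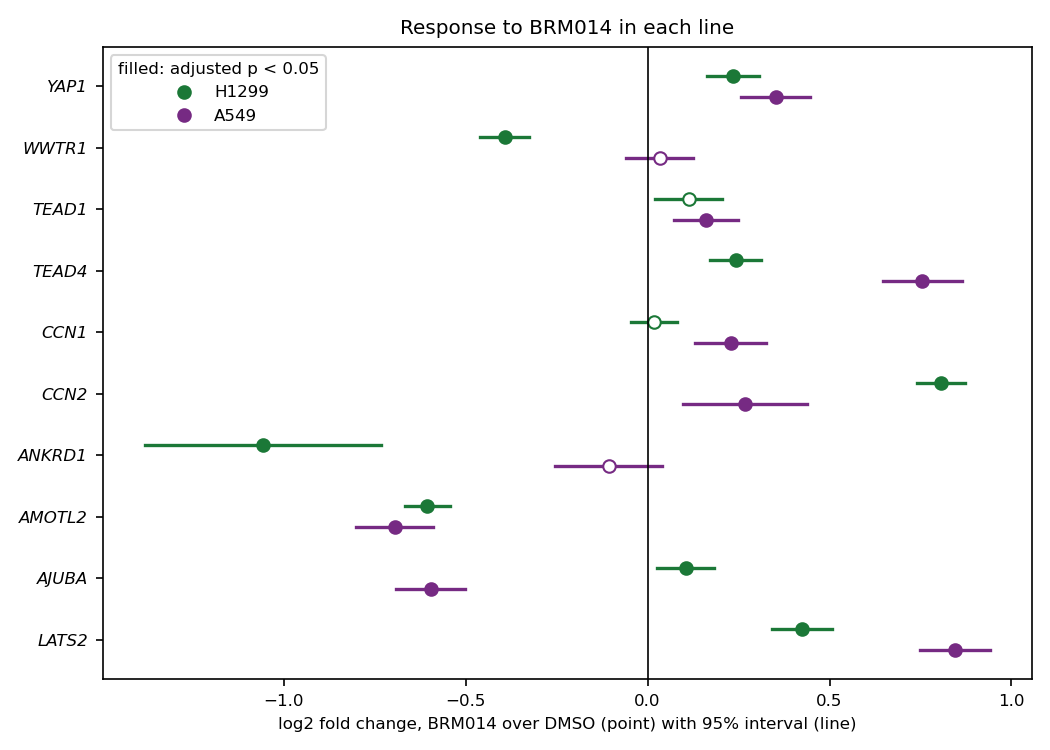
Response of each gene to BRM014, as log2 fold change over DMSO (points) with its 95% interval (lines), for H1299 above A549, each with 3 libraries per treatment. Filled points passed an adjusted p of 0.05. AMOTL2 lies left of 0 in both lines, at -0.60 in H1299 and -0.69 in A549, and AJUBA lies on either side of 0, at 0.11 in H1299 and -0.60 in A549.

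Among genes tested in both lines, 4.31% rose in both, 6.26% fell in both and 2.3% changed in opposite directions; of the 10 genes these were 4, 1 and 1. All values are shares of a library. Spike-in counts were not used here, so a lower level may stand for less of that RNA per cell or for more of the others, and in bulk RNA fewer expressing cells and less RNA per cell cannot be told apart.

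YAP1, the coactivator at the end of the Hippo kinase cascade, rose in both lines. In H1299 its level was 138.5, 150.5 and 145.1 CPM in BRM014 replicates 1, 2 and 3, against 124.2, 125.1 and 119.8 CPM in the DMSO replicates. In A549 it was 82.3, 80.7 and 78.3 CPM with BRM014 (libraries a, b and 3), against 64.6, 62.6 and 61.8 CPM with DMSO. Every BRM014 library lay above every DMSO library of its line. The log2 fold change was 0.23 in H1299 (SE 0.03, adjusted p = 2.19e-06) and 0.35 in A549 (SE 0.04, adjusted p = 4.85e-05), where SE is the standard error. These are rises of 17.7% in H1299 and 27.6% in A549. The responses of the lines were not separated: the log2 difference, H1299 minus A549, was -0.09 with a 95% interval of -0.22 to 0.03 (adjusted p = 0.311).

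WWTR1 encodes TAZ, the other coactivator, and fell in H1299, where YAP1 rose. In H1299 it was at 103.7, 103.6 and 102.3 CPM with BRM014, against 136.3, 133.9 and 136.1 CPM with DMSO. The BRM014 libraries of H1299 lay within 2 CPM of each other and all below the DMSO libraries. WWTR1 fell by 23.8% there (log2 fold change -0.39, SE 0.03, adjusted p = 8.86e-12). In A549 it was at 104.2, 100.2 and 100.9 CPM with BRM014, against 103.6, 97.8 and 97.0 CPM with DMSO. These A549 groups overlapped and no change passed the test (log2 fold change 0.03, adjusted p = 0.577). The interval of the log2 fold change, -0.06 to 0.13, does not reach the H1299 value. The difference of the responses passed the test at -0.40 (SE 0.05, adjusted p = 5.37e-06).

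TEAD1 and TEAD4 encode DNA-binding partners through which YAP and TAZ reach their targets. TEAD4 rose in both lines, and more in A549. The H1299 libraries held 135.9, 131.2 and 129.8 CPM with BRM014, against 110.9, 109.0 and 115.6 CPM with DMSO. The A549 libraries held 96.3, 95.6 and 93.7 CPM with BRM014, against 60.1, 53.7 and 55.2 CPM with DMSO. No BRM014 library overlapped a DMSO library of its line. The rise was 18.3% in H1299 (log2 fold change 0.24, SE 0.03, adjusted p = 9.5e-07) and 68.8% in A549 (0.76, SE 0.05, adjusted p = 2.5e-07). The response was smaller in H1299, with a difference of -0.49 on the log2 scale (SE 0.06, adjusted p = 1.61e-06).

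TEAD1 rose in A549 and missed the threshold in H1299. The H1299 libraries held 44.8, 43.2 and 46.2 CPM with BRM014, against 41.5, 42.1 and 40.3 CPM with DMSO. The groups did not overlap, but the log2 fold change of 0.11 missed the threshold (95% interval 0.02 to 0.21, adjusted p = 0.0703). It passed with plain library totals as the scaling (adjusted p = 0.0182), with a filter at 5 CPM (0.0486) and without H1299 BRM014 replicate 2 (0.0305). The A549 libraries held 102.2, 106.9 and 104.6 CPM with BRM014, against 91.2, 95.2 and 94.2 CPM with DMSO, again without overlap. This was a rise of 11.8% (log2 fold change 0.16, SE 0.04, adjusted p = 0.00784), which did not pass without library b (adjusted p = 0.0538). The responses of TEAD1 were not separated between the lines (log2 difference -0.02, 95% interval -0.15 to 0.11, adjusted p = 0.853).

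**Figure D2:**
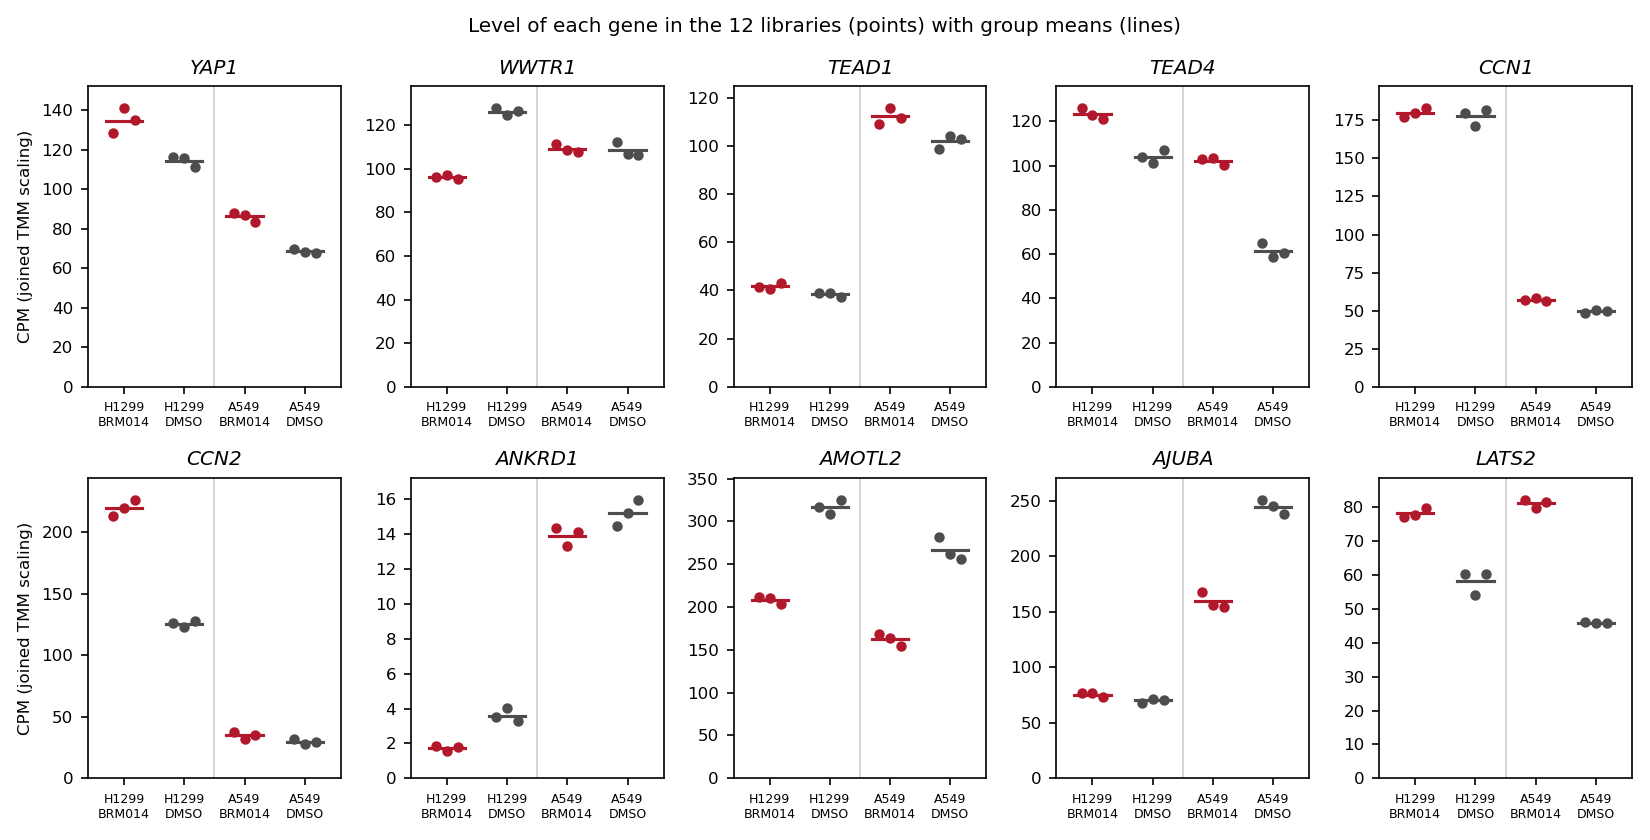
CPM of each gene in the 12 libraries, scaled together with TMM factors, in H1299 with BRM014, H1299 with DMSO, A549 with BRM014 and A549 with DMSO; points are libraries, lines are means of 3, and every axis starts at 0. CCN2 with BRM014 averaged 219.9 CPM in H1299 and 34.9 CPM in A549, and ANKRD1 stayed below 5 CPM in every H1299 library.

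CCN1 and CCN2 (CYR61 and CTGF) are secreted matricellular proteins and standard readouts of YAP and TEAD. CCN2 rose in both lines and CCN1 in A549. CCN2 in H1299 was at 230.3, 234.4 and 243.2 CPM with BRM014, against 134.7, 132.2 and 137.9 CPM with DMSO. The groups stood far apart compared with the spread within them, and the rise was 74.9% (log2 fold change 0.81, SE 0.03, adjusted p = 1.29e-20). It was the 122nd highest log2 fold change of the 14986 genes tested in H1299.

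In A549, CCN2 was at 35.5, 29.25 and 33.0 CPM with BRM014, against 29.23, 25.3 and 26.6 CPM with DMSO. Library b and DMSO replicate 1 were nearly level, so the groups only just failed to overlap. The rise of 20.3% (log2 fold change 0.27, SE 0.08, adjusted p = 0.0184) was lost without A549 DMSO replicate 2 (adjusted p = 0.0869) or replicate 3 (0.0627). The response of CCN2 was larger in H1299 by 0.56 on the log2 scale (SE 0.08, adjusted p = 6.82e-06).

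CCN1 in H1299 was at 191.2, 191.9 and 196.4 CPM with BRM014, against 192.0, 184.6 and 195.7 CPM with DMSO, and the groups overlapped. The interval of its log2 fold change, -0.05 to 0.08, corresponds to 0.969 to 1.06 times the DMSO level (adjusted p = 0.758). For A549 the levels were 53.1, 53.9 and 52.8 CPM with BRM014, against 44.8, 46.2 and 45.4 CPM with DMSO. CCN1 rose by 17.2% there, without overlap (log2 fold change 0.23, SE 0.04, adjusted p = 0.00162). The difference of the responses, -0.19 (SE 0.06, adjusted p = 0.0195), was lost without A549 library b, H1299 DMSO replicate 1 or H1299 DMSO replicate 3 (adjusted p 0.0562 to 0.0621).

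ANKRD1, an ankyrin repeat protein best known from heart muscle and a common readout of YAP, had the lowest counts of the 10 in both lines. In H1299 it had 62, 70 and 63 counts with BRM014, against 148, 135 and 99 counts with DMSO. These are 1.99, 1.67 and 1.95 CPM with BRM014, against 3.74, 4.33 and 3.53 CPM with DMSO, so each BRM014 library was below each DMSO library. ANKRD1 fell by 52.0% (log2 fold change -1.06, SE 0.16, adjusted p = 2.69e-06), with an interval of -1.38 to -0.73. A fall of 2-fold or more that passed the test was seen for 1.61% of all genes in H1299.

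In A549, ANKRD1 was at 13.4, 12.3 and 13.2 CPM with BRM014, against 13.4, 13.9 and 14.6 CPM with DMSO. The groups only just overlapped, and with all 12 libraries scaled together they only just did not; no change passed the test (log2 fold change -0.11, 95% interval -0.25 to 0.04, adjusted p = 0.245). The difference of the responses was -0.93 on the log2 scale (SE 0.15, adjusted p = 4.73e-05). ANKRD1 and CCN2, both readouts of YAP and TEAD, changed in opposite directions in H1299.

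AMOTL2, an angiomotin-like protein that binds YAP and keeps it at cell junctions, fell in both lines. Its H1299 levels were 228.1, 224.7 and 218.5 CPM with BRM014, against 338.2, 332.5 and 350.5 CPM with DMSO. Its A549 levels were 157.8, 151.1 and 144.5 CPM with BRM014, against 260.4, 239.1 and 234.5 CPM with DMSO. In each line the gap between the groups was wider than the whole range within either group. AMOTL2 fell by 34.2% in H1299 (log2 fold change -0.60, SE 0.03, adjusted p = 7.1e-18) and fell by 38.2% in A549 (-0.69, SE 0.05, adjusted p = 4.14e-07). The lines were not separated in this response (log2 difference 0.11, 95% interval -0.01 to 0.23, adjusted p = 0.191).

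LATS2, the kinase that phosphorylates YAP and TAZ and is itself a target of theirs, rose in both lines. H1299 had 83.3, 82.7 and 85.7 CPM with BRM014, against 64.3, 58.3 and 64.9 CPM with DMSO. A549 had 76.8, 73.7 and 76.2 CPM with BRM014, against 42.6, 41.9 and 41.8 CPM with DMSO. Every BRM014 library lay above every DMSO library of its line. LATS2 rose by 34.2% in H1299 (log2 fold change 0.42, SE 0.04, adjusted p = 2.49e-10). In A549 it rose by 79.6%, the highest value of the 10 genes in that line (0.84, SE 0.04, adjusted p = 3.42e-08). The response was smaller in H1299, with a difference of -0.40 on the log2 scale (SE 0.06, adjusted p = 6.26e-05).

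AJUBA, a LIM domain adaptor that restrains the LATS kinases, had opposite signs in the lines. H1299 had 82.6, 81.9 and 78.1 CPM with BRM014, against 72.8, 77.4 and 75.7 CPM with DMSO. The groups lay side by side, less than 1 CPM apart, and the rise of 7.57% was at the threshold (log2 fold change 0.11, SE 0.04, adjusted p = 0.046). That rise did not pass in DESeq2 (adjusted p = 0.0872), in the fit of both lines together (0.109), or without H1299 DMSO replicate 1 or 3 or BRM014 replicate 1 or 2 (0.0812 to 0.252). A549 had 156.7, 144.2 and 144.6 CPM with BRM014, against 231.9, 224.1 and 217.3 CPM with DMSO, groups that stood far apart. AJUBA fell by 33.8% there (log2 fold change -0.60, SE 0.04, adjusted p = 6.48e-07). The difference between the responses was 0.72 on the log2 scale (SE 0.06, adjusted p = 2.06e-09).

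**Figure D3:**
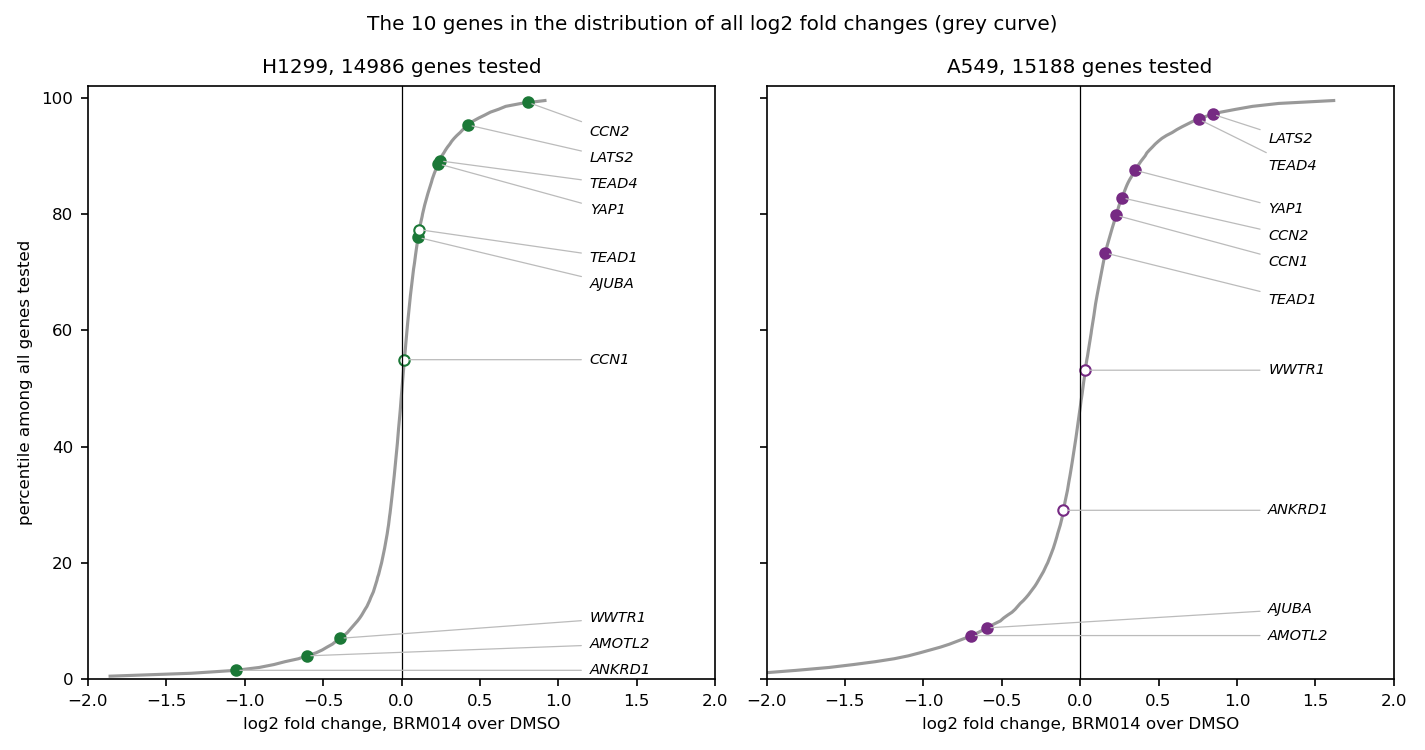
Place of the 10 genes in the distribution of log2 fold changes, BRM014 over DMSO, of all genes tested (grey curve, percentile on the vertical axis), with H1299 left and A549 right. Filled points passed an adjusted p of 0.05. CCN2 and ANKRD1 stand at percentiles 99.2 and 1.51 in H1299, and LATS2 and AMOTL2 at 97.1 and 7.49 in A549.

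The response differed between the lines for 7 of the 10 genes, all but YAP1, TEAD1 and AMOTL2. Of 16466 genes, 19.5% differed in this way, 10.2% with a more positive and 9.25% with a more negative response in H1299; among genes averaging at least 20 CPM the share was 25.8%. CCN2 and AJUBA had the more positive response in H1299. WWTR1, TEAD4, CCN1, ANKRD1 and LATS2 had the more negative one. The intervals of WWTR1 (-0.51 to -0.29), LATS2 (-0.53 to -0.26) and TEAD4 (-0.61 to -0.36) overlapped.

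The lines also differed without BRM014. In DMSO all 10 genes differed between H1299 and A549, 7 higher and 3 lower in H1299. Of 16466 genes 85.7% differed, 42.9% higher and 42.8% lower in H1299, so the count of 10 stands close to the background. With CPM scaled over all 12 libraries, CCN2 averaged 125.6 ± 2.68 CPM in H1299 and 29.5 ± 1.99 CPM in A549 with DMSO (SD, n = 3 each), a log2 difference of 2.09 (SE 0.06). CCN1 averaged 177.6 ± 5.45 CPM in H1299 and 49.5 ± 1.07 CPM in A549 (log2 difference 1.84, SE 0.04). ANKRD1, the other YAP and TEAD readout here, stood the other way, at 3.6 ± 0.38 CPM in H1299 and 15.2 ± 0.752 CPM in A549 (-2.08, SE 0.09).

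TEAD1 and TEAD4 stood in opposite orders in the lines. With DMSO, TEAD1 averaged 38.4 ± 0.895 CPM in H1299 and 101.9 ± 2.91 CPM in A549 (log2 difference -1.41, SE 0.04). TEAD4 averaged 104.1 ± 3.01 CPM in H1299 and 61.4 ± 3.26 CPM in A549 (0.76, SE 0.04). AJUBA was lower in H1299, at 70.1 ± 1.85 CPM against 244.5 ± 6.57 CPM in A549 (-1.80, SE 0.04). YAP1 was higher in H1299, at 114.5 ± 2.91 CPM against 68.7 ± 1.144 CPM in A549 (0.74, SE 0.04). All of these passed the test with adjusted p values of 3.65e-14 or lower, and no H1299 library overlapped an A549 library, as for 86.6% of all genes.

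WWTR1, AMOTL2 and LATS2 differed least between the lines in DMSO, with log2 differences, H1299 over A549, of 0.22 for WWTR1, 0.25 for AMOTL2 and 0.34 for LATS2. Sizes this small depend on scaling: plain library totals moved the median of all genes by 0.23, and these genes to 0.44 (WWTR1), 0.47 (AMOTL2) and 0.57 (LATS2). The median over all genes with TMM factors was 0.02.

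**Figure D4:**
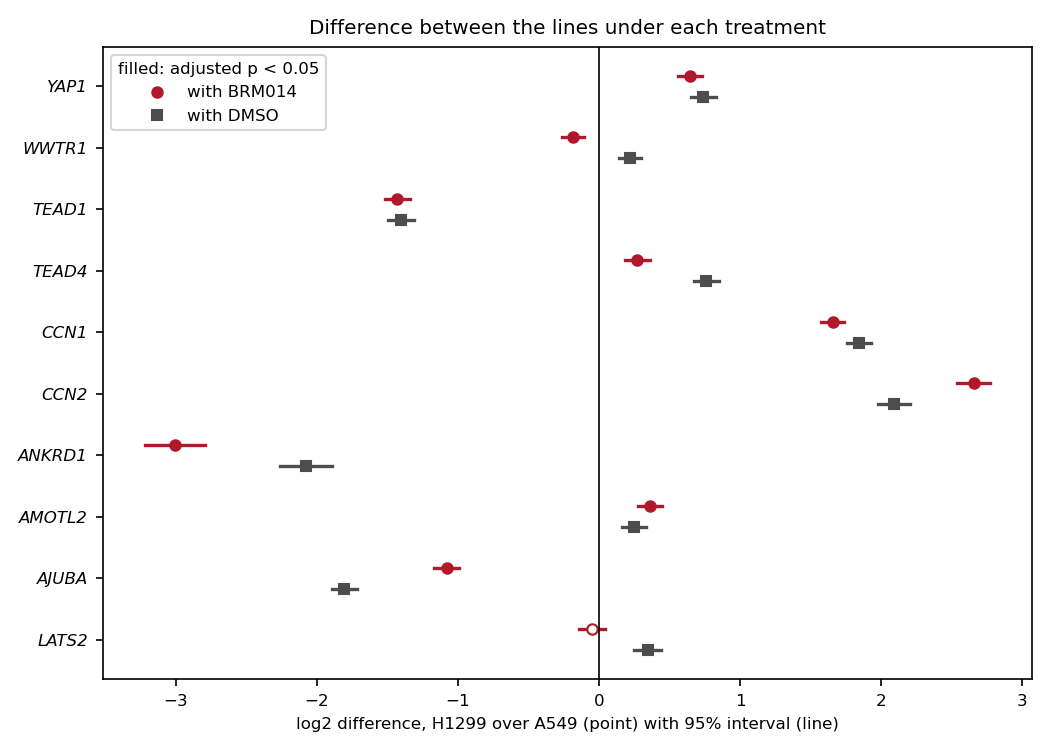
Difference between the lines for each gene as log2 of H1299 over A549 (points) with 95% intervals (lines), with BRM014 (circles) above DMSO (squares), from 3 libraries per group. Filled points passed an adjusted p of 0.05. CCN2 stands at 2.65 with BRM014 and 2.09 with DMSO, ANKRD1 at -3.01 with BRM014 and -2.08 with DMSO, and LATS2 is near 0 with BRM014 at -0.05.

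With BRM014, 9 of the 10 genes differed between the lines, 5 higher and 4 lower in H1299, against 85.5% of all genes, 42.7% higher and 42.8% lower. This comparison was added after the data were seen. LATS2 was the exception, at 78.2 ± 1.43 CPM in H1299 and 81.1 ± 1.28 CPM in A549 (log2 difference -0.05, 95% interval -0.14 to 0.04, adjusted p = 0.272), although library totals put it higher in H1299 (0.13, adjusted p = 0.0069). With TMM scaling WWTR1 was lower in H1299 with BRM014, at 96.2 ± 0.922 CPM against 109.2 ± 1.92 CPM in A549 (-0.18, SE 0.04, adjusted p = 0.000119), and higher there with DMSO, at 126.1 ± 1.66 CPM against 108.4 ± 3.26 CPM in A549. With plain library totals its log2 difference with BRM014 was 0.0029, so the lower place in H1299 depended on the scaling.

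The log2 distance between the lines was smaller with BRM014 for AJUBA, at -1.08 with BRM014 and -1.80 with DMSO, and for TEAD4, at 0.27 with BRM014 and 0.76 with DMSO. It was also smaller for CCN1, at 1.66 with BRM014 and 1.84 with DMSO, and for LATS2, at -0.05 with BRM014 and 0.34 with DMSO. WWTR1 lay on opposite sides, as given above. The distance was wider for CCN2 and for ANKRD1. These are the tests of the response differences given above, seen from the side of the lines.

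By joined CPM, YAP1 was highest in H1299 with BRM014 (134.9 ± 6.38 CPM), followed by H1299 with DMSO, A549 with BRM014 (86.3 ± 2.35) and A549 with DMSO, and CCN2 and TEAD4 had the same order. CCN1 had this order too, with the H1299 groups not separated from each other. AJUBA ran the other way by line, highest in A549 with DMSO, then A549 with BRM014 (159.3 ± 7.18), then the H1299 groups. TEAD4 in A549 with BRM014 reached 100.1 to 103.4 CPM, a range that overlapped the 101.2 to 107.2 CPM of H1299 with DMSO, a pair that was not tested.

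The ratio of the raw counts of 2 genes within a library needs no scaling between libraries, and gene length cancels when groups are compared. Ratios of 6 pairs were taken in each line, which makes 12 two-sided exact permutation tests. With 3 libraries against 3 the smallest p such a test can give is 0.1, and adjustment cannot lower it, so none can pass 0.05. Of the 12, 10 gave this smallest p (0.12 after Benjamini-Hochberg adjustment over the 12), with BRM014 and DMSO libraries that did not overlap. Ratios of other gene pairs were not taken, so this count has no background. LATS2 to AMOTL2 joins a gene that rose with a gene that fell in both lines. In H1299 the same holds for WWTR1 to YAP1, for ANKRD1 to CCN2 and, with the AJUBA rise at the threshold, for AJUBA to AMOTL2. Separation of those ratios follows from the single-gene results above.

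The WWTR1 to YAP1 ratio was lower with BRM014 in both lines. In the H1299 libraries it was 0.749, 0.688 and 0.705 with BRM014, against 1.098, 1.071 and 1.136 with DMSO. In the A549 libraries it was 1.265, 1.242 and 1.289 with BRM014, against 1.603, 1.562 and 1.568 with DMSO. The mean ratio with BRM014 was 0.648 times that with DMSO in H1299 and 0.802 times in A549.

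The TEAD4 to TEAD1 ratio averaged 2.96 ± 0.131 with BRM014 and 2.71 ± 0.141 with DMSO in H1299 (SD, n = 3 each), where the groups overlapped (exact permutation p = 0.2). In A549 it averaged 0.911 ± 0.0273 with BRM014 and 0.604 ± 0.0498 with DMSO, 1.51 times as high and with no overlap. Under either treatment every H1299 library lay above every A549 library.

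The CCN1 to CCN2 ratio was lower with BRM014 in H1299, at 0.83, 0.819 and 0.808 with BRM014, against 1.426, 1.397 and 1.419 with DMSO. In A549 it was 1.496, 1.844 and 1.598 with BRM014, against 1.532, 1.826 and 1.703 with DMSO, and the groups overlapped (exact permutation p = 0.8). The ANKRD1 to CCN2 ratio with BRM014 was 0.277 times its DMSO value in H1299 and 0.773 times in A549.

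The LATS2 to AMOTL2 ratio was higher with BRM014 in both lines. It averaged 0.375 ± 0.0149 with BRM014 and 0.184 ± 0.00753 with DMSO in H1299, and 0.501 ± 0.0233 with BRM014 and 0.172 ± 0.0077 with DMSO in A549 (SD, n = 3 each). This was 2.04 times as high in H1299 and 2.91 times as high in A549, and the DMSO libraries of the lines overlapped. The AJUBA to AMOTL2 ratio was 1.63 times as high with BRM014 in H1299 and 1.07 times as high in A549, where both genes fell.

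**Figure D5:**
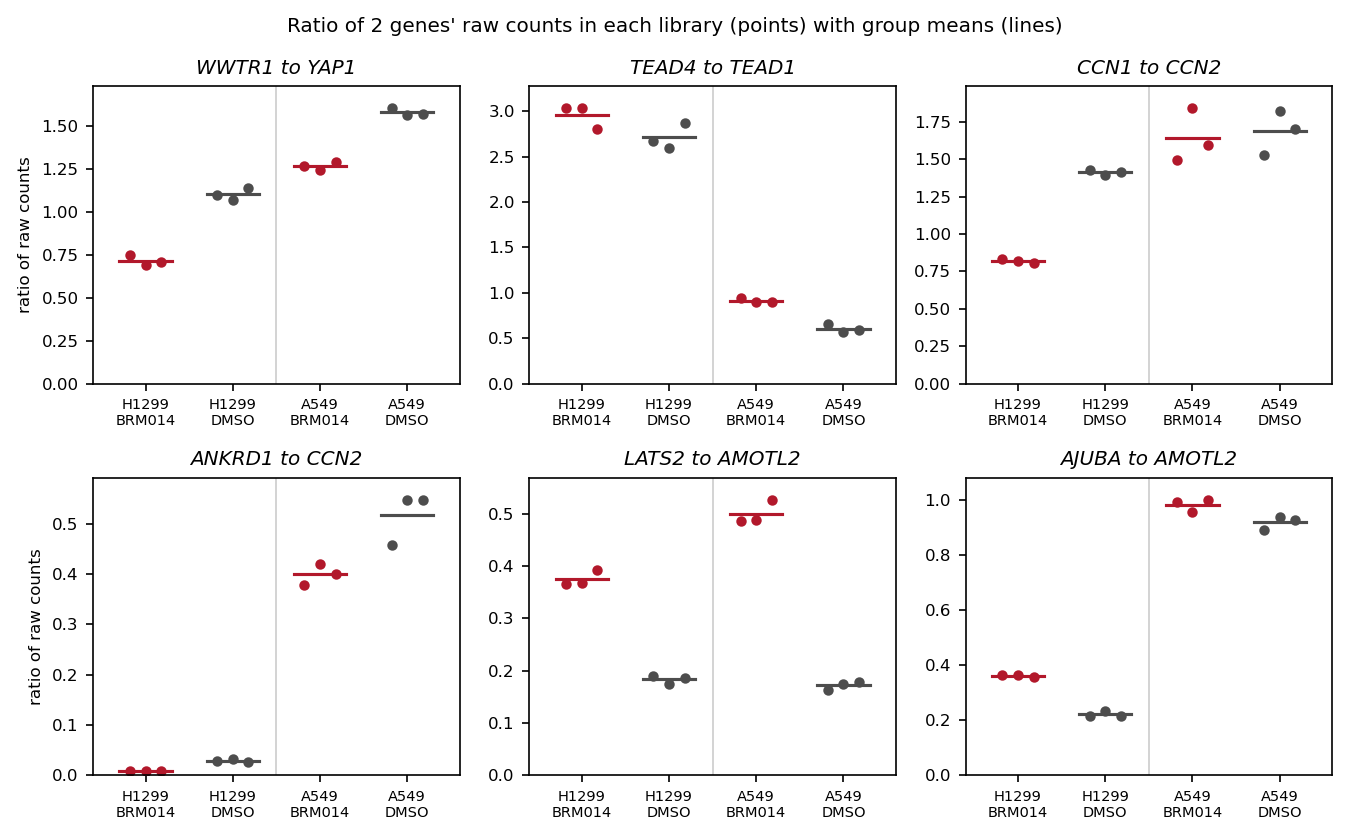
Ratio of raw counts of 2 genes in each of the 12 libraries (points) with group means of 3 (lines), for 6 pairs; each axis starts at 0. LATS2 to AMOTL2 is higher with BRM014 in both lines, CCN1 to CCN2 is lower with BRM014 in H1299 and overlaps in A549, and ANKRD1 to CCN2 is near 0 in H1299.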

How the data were processed

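The authors deposited raw counts per gene for each line, as whole numbers with no normalization. The submitters' processing notes name STAR 2.7.3a, Bowtie 1.2.2, cutadapt 1.14, featureCounts, DESeq2 and build hg38. The annotation is not given in the sources used here, nor is the strand setting, so a gene that overlaps another on either strand has uncertain counts. The tables hold identifiers alone, and the symbols are those given with the identifiers when the genes were chosen. The name tables at hand matched 0 of 25530 identifiers, so wider lists of Hippo regulators, YAP targets and cell type markers, the genes most like CCN1, and promoters were not analysed here. The 10 genes and the lists were chosen with earlier results of these data known, and the rule was to name all 10 whatever their values.

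The analysis used edgeR 4.0.16 in R 4.3.3 with filterByExpr, TMM factors and two-sided quasi-likelihood tests, adjusted by Benjamini-Hochberg over all genes at 0.05. Each line was fitted alone for its response. All 12 libraries were fitted together for the differences between lines. An SE is the size of the log2 value over the root of its F statistic, and intervals are at 95%. The steps were tested on simulated data. Alternatives were DESeq2 1.42.0, limma-voom (limma 3.58.1), other scalings and filters, a 1.2-fold test, a replicate block and leaving out libraries. The labels do not name separate cultures, so the p-values may reflect technical spread alone. No replicate pair agreed within sampling noise (chi-square per degree of freedom 2.20 to 11.1). DMSO is given as 0.05% in the titles and as 0.5% in the treatment field.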

Additional observations from a re-analysis of the deposited data

Results flagged for a closer look

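For 7 of the 10 genes BRM014 had an effect of different size or sign in H1299 and A549 by the interaction test in edgeR. The log2 differences, H1299 minus A549, were -0.40 for WWTR1, -0.49 for TEAD4, -0.19 for CCN1, 0.56 for CCN2, -0.93 for ANKRD1, 0.72 for AJUBA and -0.40 for LATS2. Over all genes, 19.5% differed in this way. Over the alternatives tried, the difference ranged from 0.68 to 0.76 for AJUBA, from 0.50 to 0.63 for CCN2 and from -0.98 to -0.85 for ANKRD1, and it passed the threshold in each for these 3 genes. The differences of WWTR1, TEAD4 and LATS2 also passed in each, while that of CCN1 did not pass in 3 of 19 alternatives.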

How the results depend on the processing

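The number of the 10 genes that changed was 8 in each line, and the alternatives that moved it by more than 1.5 times were the tests against a 1.2-fold change, which ask for larger effects: 5 genes passed in H1299 (WWTR1, CCN2, ANKRD1, AMOTL2 and LATS2) and 4 in A549 (TEAD4, AMOTL2, AJUBA and LATS2). With single libraries removed in turn, 7 to 8 genes changed in H1299 and 7 to 8 in A549, 6 to 7 differed in their responses, 10 differed between the lines in DMSO, and 9 with BRM014. Of 50 single-gene results, 38 kept direction and side of the threshold in every alternative in which the gene was tested. The direction turned for WWTR1 (0.0029) and LATS2 (0.13) between the lines with BRM014 under library totals. That scaling moved the median of all genes by 0.19 in this comparison. The direction also turned for CCN1 in H1299, whose log2 fold change without a library ranged from -0.0048 to 0.037, and the cause was not tested. A filter at 5 CPM removed ANKRD1 from the H1299 test. With the replicate number as a replicate block, H1299 gave 7 genes, AJUBA being lost at an adjusted p of 0.0503. Same-numbered H1299 libraries deviated with correlations of -0.0475, -0.0287 and 0.0096. These values do not show that the numbers pair the samples, and they cannot exclude a shared culture or day. In A549 the numbers of libraries a and b are not known, so both assignments were fitted with the replicate block, an alternative chosen after seeing the data, and 8 genes changed under each. With a as replicate 1 the same-number correlations in A549 were 0.374, -0.0027 and 0.22, and with b as replicate 1 they were -0.066, -0.16 and 0.22. Under neither assignment did every same-numbered pair deviate together. ANKRD1 in H1299 rests on 195 counts over the 3 BRM014 libraries and 382 over the 3 DMSO libraries, which limits the precision of its fold change.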
